A study of Mus musculus with 36 samples.

Results

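The fatty acid-binding proteins Fabp1, Fabp3, Fabp4 and Fabp5 were examined in lung RNA of mice that had received crude oil or oil dispersants. The 4 genes were selected by symbol, as members of 1 family listed in both count tables, from 17716 gene names that the tables share. They were chosen with earlier results of these same mice known, so the values below are descriptions and the adjusted p-values beside them are no independent evidence.

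RNA sequencing was performed on lung, the left lung per the study's methods, of 36 wild-type C57BL/6 mice. Each sex had 3 mice in each of 6 groups, and female and male mice were kept in separate count tables. The saline group was the control, the oil group received MC252 (Macondo well) crude oil, the 9500 and 9527 groups received the dispersants Corexit 9500 and Corexit 9527, and the 9500+oil and 9527+oil groups received a dispersant together with oil. Doses were given on days 0, 7 and 13 and the mice were killed on day 14. The age at the first dose was 8 weeks, and all treatments were a 0.1 dilution of the accommodated fraction, called WAF in the labels and a saline-accommodated fraction in the methods. The route was intratracheal instillation per the labels and oropharyngeal aspiration per the methods. Each library came from 1 mouse, and the mouse numbers run from 1 to 18 in each sex.

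Fatty acid-binding proteins are small cytosolic proteins that fold into a barrel around a long-chain fatty acid or a related lipid and carry it between membranes, enzymes and the nucleus. Fabp1 is the form of liver and intestine, Fabp3 that of heart and skeletal muscle, Fabp4 that of adipocytes, which is also found in macrophages and capillary endothelium, and Fabp5 that of the epidermis, which many epithelial cells and macrophages also make. Several of them bring ligand to the peroxisome proliferator-activated receptors (PPARs), nuclear receptors that pair with retinoid X receptors (RXRs), and some of the genes are themselves targets of these receptors.

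The 4 genes lie at 3 places in the mouse genome (GRCm38, GENCODE annotation). Fabp1 (ENSMUSG00000054422) is at chr6:71199827-71205023 on the plus strand, and Fabp3 (ENSMUSG00000028773) is at chr4:130308595-130315463 on the plus strand. Fabp5 (ENSMUSG00000027533, plus strand, chr3:10012548-10016607) and Fabp4 (ENSMUSG00000062515, minus strand, chr3:10204088-10208576) lie near each other on chromosome 3. The related gene Fabp12 lies beyond Fabp4, at chr3:10244209-10301183. All 4 members are protein coding, with 127 residues in Fabp1, 133 in Fabp3, 132 in Fabp4 and 135 in Fabp5. Their coding sequences shared between 56.1% (Fabp1 with Fabp3) and 67.4% (Fabp3 with Fabp4) of aligned bases. Fabp1 and Fabp4 shared no stretch of 31 bases with any other annotated transcript. In Fabp3, 50.1% of such stretches also occurred in other genes, 4 in number, of which 3 were listed. The pseudogene Fabp3-ps1 shared 35.2% and had at most 7 counts in any mouse, while Zcchc17 shared 6.4% and had up to 442 counts in female and 324 in male mice. In Fabp5, 33.1% were shared with 5 other genes, none of them listed, so the counts of Fabp3 and Fabp5 are less certain than those of the other pair.

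Promoters are shown for Fabp1 and Fabp3, the 2 members matched to a promoter, and were searched for the hexamer AGGTCA, repeats of which PPAR and RXR dimers bind. The windows are those that RefSeq gives (GRCm38.p6), 250 bases before its start site on the plus strand, with AGGTCA or its reverse complement TGACCT in capitals. RefSeq starts both genes further downstream than GENCODE, so that the last 52 bases of the Fabp1 window and the last 143 of the Fabp3 window lie inside the GENCODE gene and are not printed. The whole Fabp1 window held 2 matches, 1 of them in the printed part, and the Fabp3 window held 0. The printed parts are chr6:71199629-71199826 and chr4:130308488-130308594.
Fabp1: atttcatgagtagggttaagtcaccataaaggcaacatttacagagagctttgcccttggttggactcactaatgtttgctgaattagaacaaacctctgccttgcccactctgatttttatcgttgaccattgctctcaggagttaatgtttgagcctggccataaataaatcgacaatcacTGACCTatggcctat
Fabp3: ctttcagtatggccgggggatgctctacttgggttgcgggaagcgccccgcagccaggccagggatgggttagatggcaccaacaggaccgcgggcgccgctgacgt
Of 32851 promoter windows of 250 bases, read on both strands, 14.0% held at least 1 such hexamer and 1.36% held at least 2. A match is a string of letters and not a measured binding site. Fabp4 and Fabp5 are named only.

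Libraries held 17501180 to 30011557 counts. A level in CPM is a count scaled to a library of 1e+06 counts, after adjustment by trimmed mean of M-values (TMM) over the 18 mice of a sex. In 4 female libraries (saline mouse 3, oil mouse 6, 9527 mouse 11 and 9500+oil mouse 14) mitochondrial genes took 20.67% to 45.09% of counts. The other 32 had 5.27% to 11.34%. Results for female mice are therefore also given without these 4. In the same 4 libraries GC-rich genes stood low against GC-poor genes, by -2.39 to -1.78 on the log2 scale. The other 32 were at -0.51 to 0.31 on that scale. Fabp4 has a GC content of 40.3%, at percentile 3.7 of the listed genes. Lung identity was plain in all mice, with the surfactant gene Sftpc, which marks alveolar type 2 cells, at 3590 to 16400 CPM in female and 9030 to 15400 CPM in male mice. In such bulk tissue, fewer cells of a type and less RNA per cell cannot be told apart. Mice of a group are separate animals, so p-values measure the spread between animals.

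All 4 genes were detected in each of the 36 mice. Per kilobase of transcript, Fabp5 was the most abundant, with a median of 73.3 CPM per kilobase in female and 72.9 in male mice. Fabp4 and Fabp3 were close to each other, with medians of 19.5 and 17.2 CPM per kilobase in female mice and 13.5 and 16.2 in male mice, so that their order differed between the sexes. Fabp1 was the least abundant, with medians of 8.59 and 11.6 CPM per kilobase. Not corrected for length, Fabp1 ranged from 2.47 to 9.86 CPM in female and from 3.04 to 9 CPM in male mice, resting on 53 to 243 counts per library. Fabp5 varied least between mice, with the highest male mouse at 1.47 times the lowest, and Fabp4 in female mice varied most, with a ratio of 38.6 that came from 1 mouse.

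**Figure D1:**
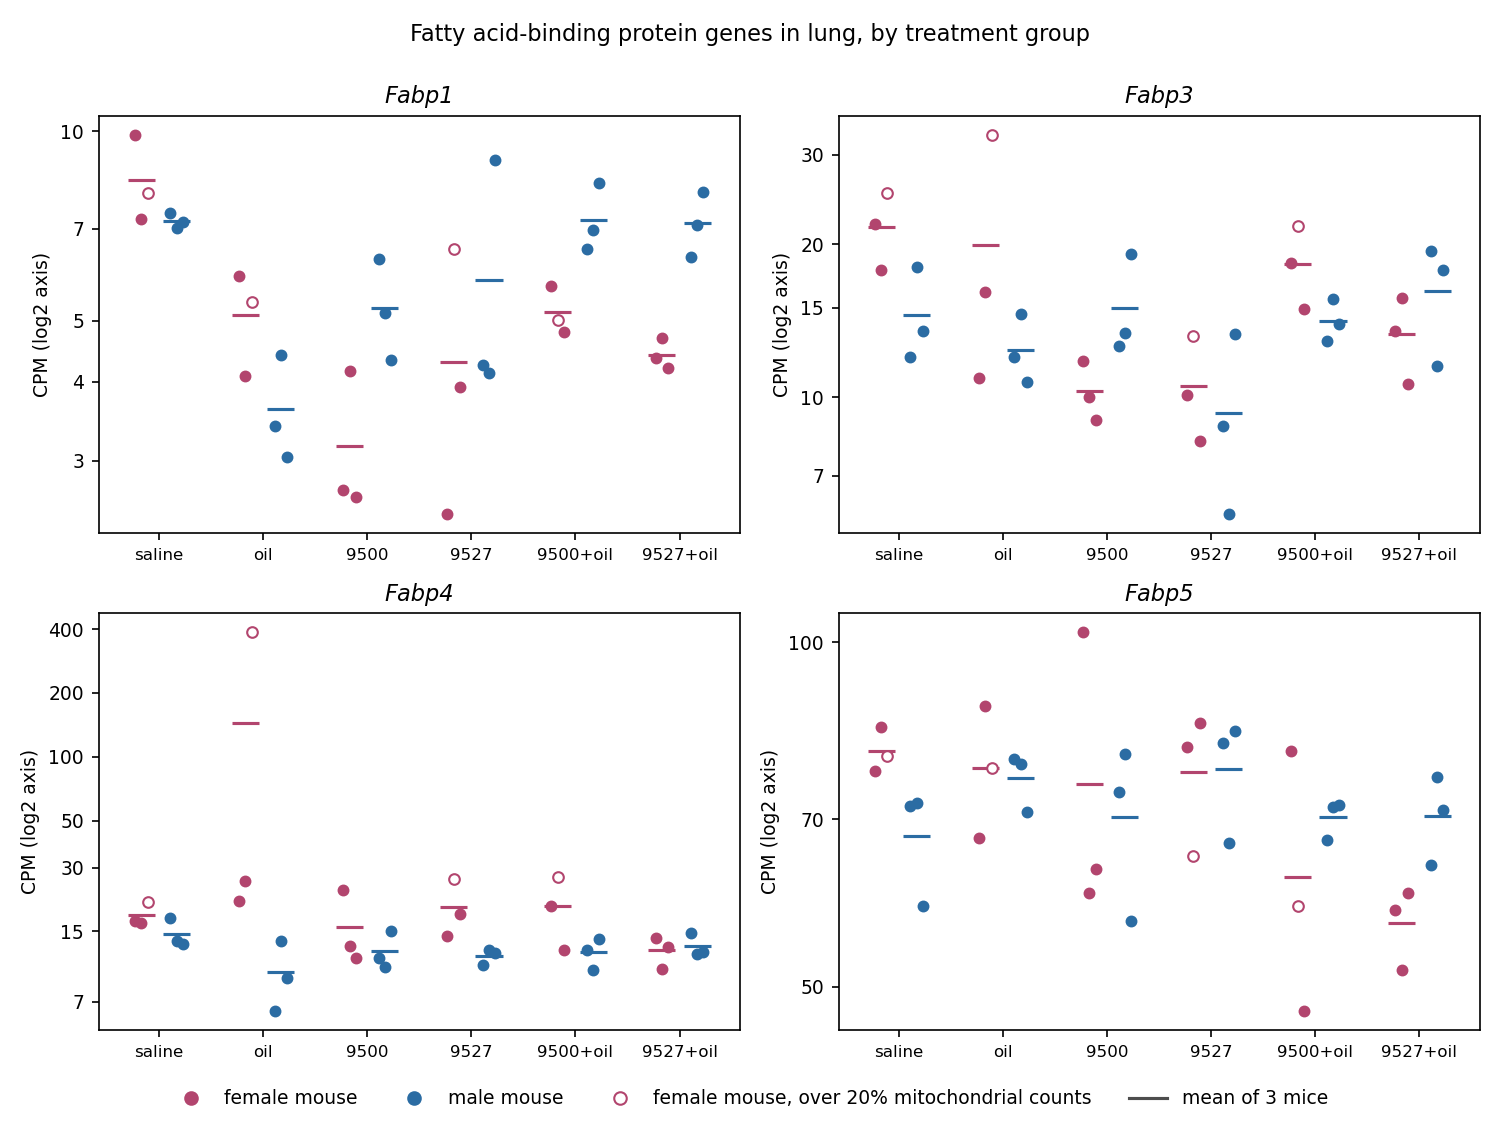
Level of each gene in each of the 36 mice, in CPM on a log2 axis, by treatment group and sex, with lines for the mean of 3 mice and open circles for the 4 female libraries rich in mitochondrial counts. Saline mice stand above most other mice for Fabp1, and 1 female oil mouse stands at 387 CPM for Fabp4.

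Each treatment was compared with saline within each sex by edgeR's quasi-likelihood test, with Benjamini-Hochberg adjustment over all genes tested and a threshold of 0.05. None of the 4 members passed in any of these 10 comparisons. Few other genes did. In female mice 0% of genes passed with each of the 5 treatments. In male mice 0.00671% passed with oil, 0.00662% with 9500, 0.114% with 9527, 0% with 9500+oil and 0.00669% with 9527+oil. At an unadjusted p under 0.05, female mice gave 1 member with oil, 2 with 9500, 1 with 9527, 0 with 9500+oil and 3 with 9527+oil, among 16 of 14837, 54 of 14839, 40 of 15004, 23 of 14792 and 164 of 14869 genes. Male mice gave 2 members with oil, 1 with 9500 and 0 with the other treatments, among 1224 of 14914 genes with oil, 960 of 15116 with 9500, 2050 of 14919 with 9527, 1373 of 14889 with 9500+oil and 829 of 14954 with 9527+oil. DESeq2, a second count test, called 1 member, Fabp1 in male oil mice, with an adjusted p of 0.0092, among 195 genes.

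Fabp1, which in the gut and liver delivers fatty acids to oxidation and to PPARs, was highest in female saline mice. In those 3 mice it was at 9.86, 7.25 and 7.97 CPM. With oil it was at 5.88, 4.09 and 5.35 CPM, with 9500 at 2.7, 4.17 and 2.63 CPM, and with 9527 at 2.47, 6.49 and 3.93 CPM. With 9500+oil it was at 5.68, 5.02 and 4.8 CPM, and with 9527+oil at 4.36, 4.7 and 4.21 CPM. All 15 treated female mice thus lay below the 3 saline mice, and the 5 treated groups overlapped one another along the order of their means. On a scale of total counts without mitochondrial genes the oil group overlapped saline, because oil mouse 4 was at 7.36 CPM and saline mouse 3 at 7.08 CPM, while the other 4 groups stayed below.

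In female mice the log2 fold change of Fabp1 from saline was largest with 9500, at -1.40 (SE 0.49), and smallest with 9500+oil, at -0.73 (SE 0.42). It was -0.97 (SE 0.57) with 9527, -0.93 (SE 0.31) with 9527+oil and -0.76 (SE 0.42) with oil. Without the 4 libraries rich in mitochondrial counts the value for 9527 was -1.41 (SE 0.34), since 9527 mouse 11 held the highest level of its group, and the other 4 lay between -1.43 and -0.70. Non-overlap from saline in the lower direction was met by 1.02% of genes with oil, 2.9% with 9500, 1.17% with 9527, 0.737% with 9500+oil and 7.2% with 9527+oil. The members below saline in these comparisons numbered 1, 2, 2, 1 and 4. Non-overlap in the higher direction with oil was met by 2.89% of genes and by 1 member, Fabp4.

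In male mice Fabp1 followed another order. The saline mice were tightly grouped at 7.41, 7.03 and 7.18 CPM, and the oil mice were at 3.41, 4.41 and 3.04 CPM. With 9500 the level was 6.26, 5.15 and 4.33 CPM, and with 9527 it was 4.26, 4.14 and 9 CPM. The combined treatments gave 6.5, 6.96 and 8.26 CPM with 9500+oil and 6.31, 7.1 and 8.02 CPM with 9527+oil, on both sides of saline. Oil and 9500 mice lay wholly below saline, the 9527 group was split, and both groups that had dispersant with oil overlapped saline. Lower non-overlap was met by 5.38% of genes with oil, 5.31% with 9500, 9.48% with 9527, 7.63% with 9500+oil and 5.91% with 9527+oil, and by 1 member with oil, 1 with 9500, 1 with 9527 (Fabp4) and 0 with the combined treatments.

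The mean of Fabp1 was 7.21 ± 0.19 CPM in male saline mice and 3.62 ± 0.71 CPM in male oil mice (SD, n = 3). That log2 fold change was -1.0 (SE 0.21), with an adjusted p of 0.256 by edgeR's quasi-likelihood test. Marker sums of male oil and saline mice were apart as well, with alveolar macrophage genes at 1230 to 1350 CPM against 868 to 1110 CPM, interstitial macrophage and monocyte genes at 693 to 898 CPM against 448 to 622 CPM, neutrophil genes at 405 to 1110 CPM against 320 to 355 CPM and white adipocyte genes at 84 to 98.8 CPM against 114 to 134 CPM. No gene of these 4 lists passed there by edgeR's quasi-likelihood test, and their part in the Fabp1 level was not tested. Also apart were proliferating cell genes, at 120 to 209 CPM with oil against 67.5 to 101 CPM. Cardiomyocyte genes were at 347 to 371 CPM against 412 to 633 CPM, and brown adipocyte genes at 17.5 to 20.8 CPM against 21.5 to 26.6 CPM. The part of these lists was not tested either. The Fabp1 value in male mice was -0.46 (SE 0.19) with 9500 and -0.31 (SE 0.31) with 9527, which became -0.77 without mouse 12. The combined treatments gave 0.01 (SE 0.16) and -0.02 (SE 0.17). Male 9527 mouse 12 also held the highest summed level of 9 listed hepatocyte genes, at 25.6 CPM against at most 8.07 CPM in the other 17 male mice, and its albumin (Alb) was at 12.1 CPM. Fabp1 is a hepatocyte gene, and the part of such RNA in its level of 9 CPM was not tested.

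**Figure D2:**
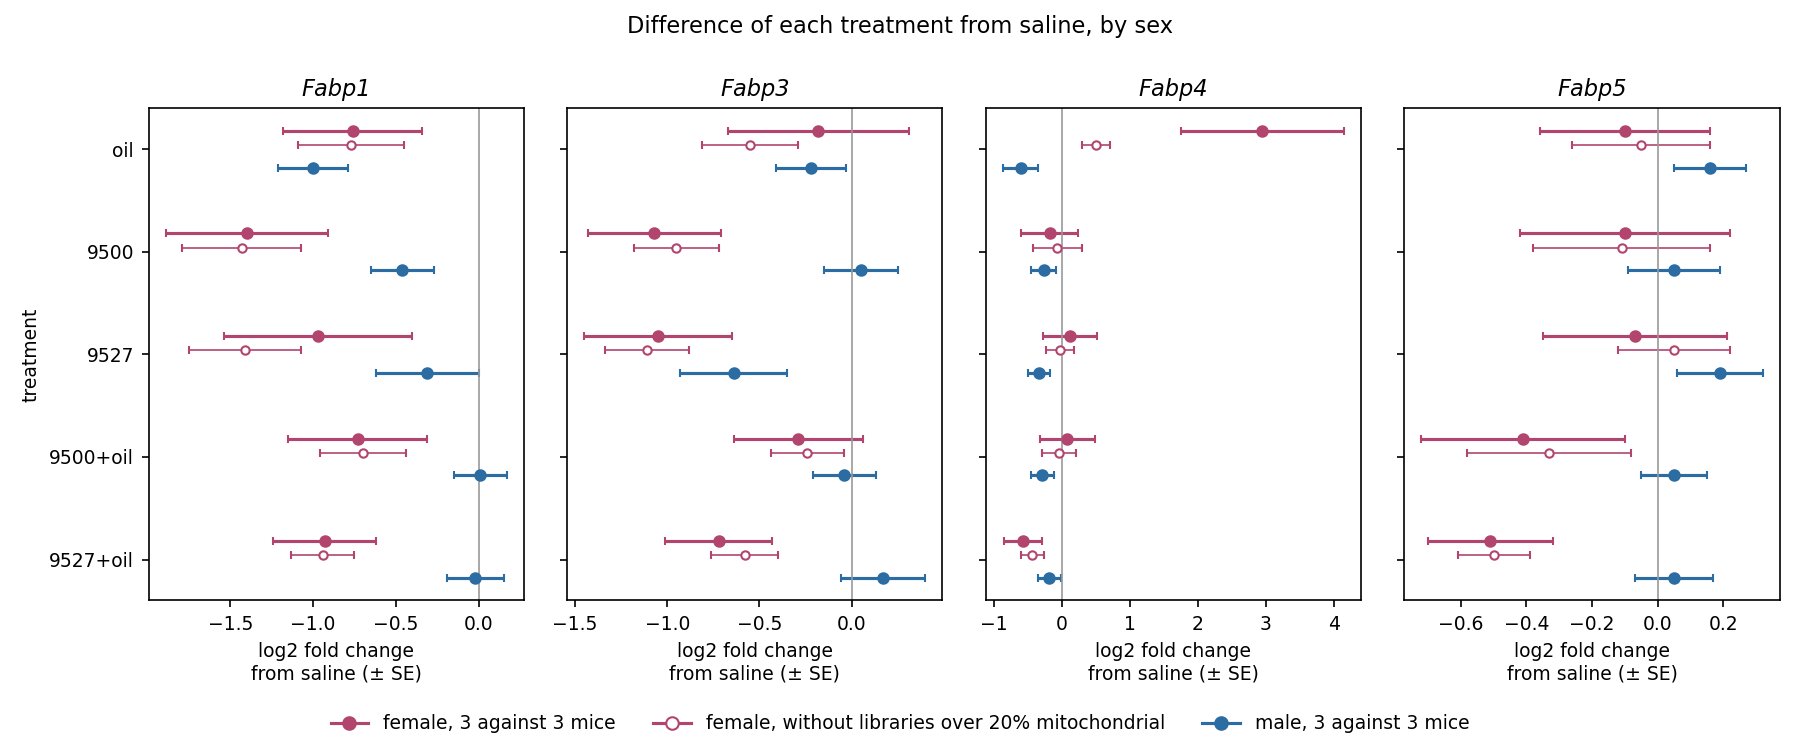
Log2 fold change of each gene from saline (horizontal axis, bars 1 SE) for the 5 treatments in female and male mice, with open circles for female mice without the 4 libraries rich in mitochondrial counts. Fabp1 is at or below 0 in every female comparison and with oil, 9500 and 9527 in male mice, and Fabp4 with oil in female mice moves from 2.95 to 0.50 when those libraries are left out.

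With both sexes in 1 fit and sex as a term, Fabp1 had the smallest p of all 15376 genes in the comparison of oil with saline, although neither it nor any other gene passed after adjustment. Its log2 fold change was -0.87 (SE 0.19), with an unadjusted p of 0.000831 and an adjusted p of 1 by edgeR's quasi-likelihood test. Oil mice lay below saline mice of their own sex for Fabp1 and for 0.026% of genes, which is 4 genes. DESeq2 called Fabp1 at an adjusted p of 0.000265, and it was the only gene called there. For 9500 the log2 fold change was -0.93 (SE 0.25), and the same non-overlap was met by Fabp1 and by 0.357% of genes. For 9527, 9500+oil and 9527+oil it was -0.64 (SE 0.31), -0.33 (SE 0.20) and -0.47 (SE 0.20). In these pooled comparisons 0 of 4 members passed, as did 0% of genes with oil, 9500, 9500+oil and 9527+oil and 0.0326% with 9527. At an unadjusted p under 0.05 there was 1 member among 68 of 15376 genes with oil, 1 among 355 of 15422 with 9500, 1 among 439 of 15328 with 9527, 0 among 64 of 15318 with 9500+oil and 2 among 461 of 15417 with 9527+oil.

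Fabp1 was also compared between each dispersant with and without oil. In female mice all 3 of the 9500+oil group (4.8 to 5.68 CPM) lay above all 3 of the 9500 group (2.63 to 4.17 CPM), and in male mice 6.5 to 8.26 CPM lay above 4.33 to 6.26 CPM. The log2 fold change of 9500+oil over 9500 was 0.58 (SE 0.19), with an adjusted p of 1 by edgeR's quasi-likelihood test. A separation upward in each sex was met by 0.17% of genes and by 1 member. In that comparison 0 of 4 members and 0% of genes passed, with 1 member among 299 of 15333 genes at an unadjusted p under 0.05 and 0 members among 5 genes by DESeq2. For 9527+oil over 9527 the Fabp1 value was 0.19 (SE 0.27). It was 0.37 without the 4 libraries, 0.43 with GC offsets, 0.61 under limma voom with quality weights, and between 0.07 (without female 9527 mouse 10) and 0.38 (without male 9527 mouse 12) with 1 mouse left out.

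Fabp3, the heart-type protein that feeds fatty acids to mitochondria in muscle, stood lower in each mouse of 3 female dispersant groups than in the female saline mice. The saline mice were at 21.9, 17.8 and 25.2 CPM. The 9500 mice were at 11.8, 10 and 9.02 CPM, the 9527 mice at 10.1, 13.2 and 8.19 CPM, and the 9527+oil mice at 13.5, 15.7 and 10.6 CPM. These 3 groups lay wholly below saline on both scales and without the 4 libraries. With 9500+oil the values of 18.4, 21.7 and 14.9 CPM overlapped saline, and with oil the values of 10.9, 16.1 and 32.8 CPM spread over more than the whole saline range, the highest being oil mouse 6. Without the 4 libraries the oil group, then 2 mice, also lay wholly below saline.

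In female mice the log2 fold change of Fabp3 was -1.07 (SE 0.36) with 9500, -1.05 (SE 0.40) with 9527 and -0.72 (SE 0.29) with 9527+oil. With oil it was -0.18 (SE 0.49) and ranged from -0.69 without oil mouse 6 to 0.12 without oil mouse 4 when single mice were left out, turning positive in 2 of 6 such fits, and was -0.55 (SE 0.26) without the 4 libraries, and with 9500+oil it was -0.29 (SE 0.35). Offsets for GC content moved the 9500 value to -1.68 and the 9527+oil value to -1.35. The values for these 3 dispersant groups were below 0 under every alternative tried.

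Male mice showed a separate picture for Fabp3, in which only the 9527 group stood low. Saline mice were at 12, 18 and 13.5 CPM and 9527 mice at 8.76, 5.89 and 13.3 CPM, with 1 mouse inside the saline range. With 9500 the values were 12.6, 13.4 and 19.1 CPM, and with 9527+oil they were 19.4, 11.5 and 17.8 CPM. Oil mice were at 12, 14.6 and 10.7 CPM and 9500+oil mice at 12.9, 15.6 and 13.9 CPM. All 5 treated male groups overlapped saline.

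Relative to saline, Fabp3 in male 9527 mice had a log2 fold change of -0.64 (SE 0.29), which was -0.97 without 9527 mouse 12, -0.39 without 9527 mouse 11 and -0.44 without saline mouse 2. Over both sexes the 9527 value was -0.84 (SE 0.25), with an adjusted p of 0.688 by edgeR's quasi-likelihood test and of 0.0722 without the 4 libraries. Under limma voom with sample quality weights, where 797 genes passed for 9527, Fabp3 and Fabp1 were among them with adjusted p of 0.0102 and 0.0236. For 9527+oil over 9527 the log2 fold change of Fabp3 was 0.58 (SE 0.24), with an adjusted p of 0.323 by edgeR's quasi-likelihood test. It ranged from 0.30 to 0.73 under the alternatives and from 0.44 to 0.71 with 1 mouse left out. By edgeR 0.559% of genes but 0 of 4 members passed there. At an unadjusted p under 0.05 there were 2 members among 2178 of 15396 genes, and DESeq2 called 0 members among 636 genes. Limma voom with sample quality weights gave adjusted p of 0.0362 for Fabp3 and 0.0449 for Fabp1 in that comparison, among 1559 genes.

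Markers of other cells differed in level between 9527 and saline mice, although 0 of the genes in the 4 lists below passed for 9527 over both sexes by edgeR's quasi-likelihood test. The summed level of alveolar macrophage genes was 1630 to 2830 CPM in female 9527 mice against 923 to 1880 CPM in female saline mice, with overlap, and 1160 to 2000 CPM against 868 to 1110 CPM in male mice. Of 15 alveolar macrophage genes tested, 14 had a positive log2 fold change with 9527 over both sexes, with a median of 0.43 against 0.01 over all genes. Genes of proliferating cells summed to 267 to 379 CPM in female and 167 to 386 CPM in male 9527 mice, against 91.3 to 189 CPM and 67.5 to 101 CPM with saline, without overlap in either sex, and 10 of 10 had a positive value with 9527, with a median of 1.49. In 9527+oil relative to 9527, 9 of these 10 genes passed the test and fell, with a list median of -1.52 against 0.01 over all genes, but no gene passed in that comparison without female or male 9527+oil mouse 16. With 9527 relative to saline over both sexes, capillary endothelial genes had a negative value for 15 of 16, with a median of -0.31. Cardiomyocyte genes had a negative value there for 13 of 13, with a median of -0.50. The part of these cells in the lower Fabp3 and Fabp1 levels was not tested.

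Fabp4, the adipocyte protein that carries fatty acids released by lipolysis, was at 10 to 27.1 CPM in 17 of the 18 female mice and at 387 CPM in oil mouse 6, where it rested on 6582 counts. Its level in that mouse was 23 times the median of the other 17. The other oil mice were at 20.9 and 26 CPM, and the saline mice at 16.8, 16.4 and 20.6 CPM. Oil mice therefore lay above saline mice without overlap, the nearest pair being saline mouse 3 at 20.6 and oil mouse 4 at 20.9 CPM.

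The log2 fold change of Fabp4 with oil in female mice was 2.95 (SE 1.20), with an adjusted p of 1 by edgeR's quasi-likelihood test, and it was 0.37 without mouse 6 and 0.50 (SE 0.21) without the 4 libraries. Over both sexes it was 1.20 (SE 0.94), and -0.15 (SE 0.25) without the 4 libraries. The value with all mice thus rested on 1 animal.

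In oil mouse 6 the genes of fat tissue stood high together. Of 10 listed white adipocyte genes 8 were at their highest of the 18 female mice, the exceptions being Plin1 and Lipe, and of 7 brown adipocyte genes listed 5 were, the exceptions being Adrb3 and Cox8b. The adipocyte hormone adiponectin (Adipoq) was at 66.7 CPM there and at 0 to 7.07 CPM in the other mice. Adipsin (Cfd), a complement factor secreted by fat, was at 73.9 CPM against 0 to 18.1 CPM. Ucp1, which uncouples mitochondria of brown fat, was at 20.5 CPM against 0 to 1.27 CPM. Plin1, which coats the lipid droplets of fat cells, was listed at 0 there, as in 14 of the 18 female mice, with at most 0.51 CPM in the others. The white adipocyte genes summed to 316 CPM and the brown to 70.5 CPM, against at most 118 and 24.5 CPM in the other female mice. This library also had 22.56% mitochondrial counts, and in it 84 of 15526 genes stood at 10 times their median or more, with 3 to 243 such genes in the other 17. Skeletal muscle genes (22.1 CPM) and hepatocyte genes (7.28 CPM) also had their highest sums of the female mice in oil mouse 6. The share of all genes at their highest in this library was not counted. How far adipose tissue in the piece of lung set the Fabp4 value was not tested.

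**Figure D3:**
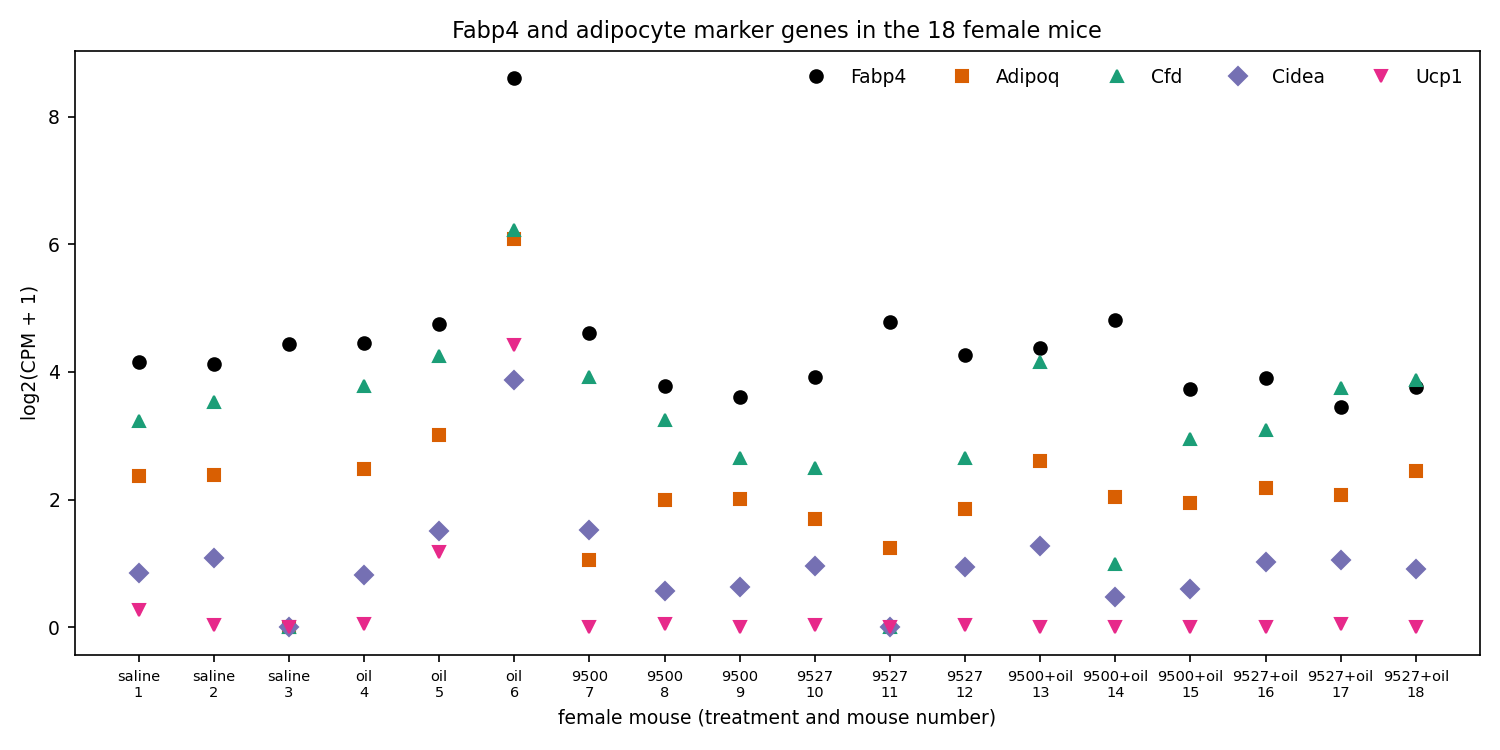
Fabp4 and 4 adipocyte genes (Adipoq, Cfd, Cidea, Ucp1) in each of the 18 female mice, as log2(CPM + 1), 1 column per mouse. Oil mouse 6 holds the highest value of all 5 genes.

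In most other groups Fabp4 overlapped saline. Female 9500 mice were at 23.5, 12.8 and 11.2 CPM, 9527 mice at 14.2, 26.4 and 18.2 CPM, and 9500+oil mice at 19.7, 27.1 and 12.3 CPM. Female 9527+oil mice were at 14, 10 and 12.6 CPM, below saline, with a log2 fold change of -0.57 (SE 0.28) that was -0.08 with GC offsets. In male mice saline gave 17.3, 13.5 and 13.1 CPM and oil 6.3, 13.5 and 9.05 CPM, with white adipocyte sums lower as given above and a log2 fold change of -0.61 (SE 0.26) that was -0.93 without oil mouse 5 and -0.38 without oil mouse 4. Male 9527 mice, at 10.4, 12.2 and 11.9 CPM, lay below saline by a small margin. The log2 fold change was -0.34 (SE 0.16) and ranged from -0.41 to -0.20 with 1 mouse left out. White adipocyte sums were 82.6 to 91.5 CPM in these mice against 114 to 134 CPM with saline. Brown adipocyte sums were 10.2 to 16.8 CPM against 21.5 to 26.6 CPM. The part of these markers in the Fabp4 level was not tested. The remaining male groups ranged from 9.91 to 15.1 CPM for Fabp4 and overlapped saline.

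Fabp5, the epidermal-type protein, was the steadiest of the 4. In female mice saline gave 77.1, 84.3 and 79.6 CPM, and only 9527+oil, at 58.4, 51.7 and 60.4 CPM, lay wholly below. Its log2 fold change there was -0.51 (SE 0.19) and -0.24 with GC offsets, and the groups overlapped on the scale of total counts without mitochondrial genes. In these 9527+oil mice, in which all 4 members lay below saline, alveolar macrophage genes summed to 686 to 709 CPM against 923 to 1880 CPM with saline. Alveolar type 2 genes were at 16600 to 20600 CPM and club cell genes at 13500 to 16300 CPM, inside the saline ranges of 13100 to 23000 and 8310 to 20300 CPM, whose lower ends were saline mouse 3, and below the other 2 saline mice. The part of these cells in the members' levels was not tested. Female oil mice were at 67.5, 87.9 and 77.7 CPM, 9500 mice at 102, 60.4 and 63.3 CPM, 9527 mice at 81, 65 and 85 CPM, and 9500+oil mice at 80.4, 58.8 and 47.6 CPM. In male mice all groups lay between 57.1 and 83.7 CPM, and the 5 values for treatments against saline were between 0.05 and 0.19.

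The sexes were set against each other by the interaction of sex with treatment, which takes the male minus the female log2 fold change. In the 5 interaction fits 0% of genes and 0 of 4 members passed by edgeR's quasi-likelihood test, and 0 members by DESeq2, which called 14 genes for oil, 6 for 9500, 9 for 9527, 2 for 9500+oil and 13 for 9527+oil. At an unadjusted p under 0.05 there was 1 member among 254 genes for oil, 1 among 112 for 9500, 0 among 54 for 9527, 0 among 78 for 9500+oil and 3 among 368 for 9527+oil, of 15318 to 15422 genes tested. Fabp4 with oil had the widest gap, at -3.61 (SE 1.29), which was -1.10 (SE 0.38) without the 4 libraries. For Fabp1 the gap was 0.95 (SE 0.43) with 9500 and 0.66 (SE 0.62) with 9527. It was 0.68 (SE 0.36) with 9500+oil, 0.90 (SE 0.31) with 9527+oil and -0.28 (SE 0.39) with oil. For Fabp3 the gap was 1.13 (SE 0.39) with 9500 and 0.87 (SE 0.38) with 9527+oil. For Fabp5 it was 0.55 (SE 0.21) with 9527+oil. Per the series' design text the treatment of the sexes was done separately, so sex and treatment run cannot be told apart.

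Any difference among the 6 groups was tested within each sex. In female mice 0.0129% of genes passed and in male mice 0.135%, and 0 of 4 members passed in either, with 3 female members (Fabp1, Fabp3, Fabp4) and 1 male member (Fabp1) at an unadjusted p under 0.05, among 209 of 15526 genes in female and 1611 of 15519 in male mice. In female mice limma voom with quality weights gave Fabp1 and Fabp3 adjusted p of 0.0267 each, among 1123 genes. In male mice Fabp1 reached 0.0299 by edgeR without 9527 mouse 12, among 155 genes.

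Among the other intracellular lipid-binding proteins, 8 of 12 listed genes were present in a table. Fabp12, the neighbour of Fabp4, had medians of 1.32 CPM in female and 1.59 CPM in male mice, and Rbp7 had 0.73 and 1.46 CPM, all below the lowest level of Fabp1. Fabp2 of the intestine, Fabp7 of the brain and the retinoid carriers Rbp2, Crabp1 and Crabp2 had medians of at most 0.42 CPM. Of the 4 or 5 family genes tested in each pooled comparison 0 passed by edgeR's quasi-likelihood test. For Fabp12 the log2 fold change of oil over saline was 1.09 (SE 1.18) in female and -0.21 (SE 0.32) in male mice.

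The genes around these carriers were read from 5 lists, of PPAR and RXR receptors with their partners, uptake and activation, lipid droplets and lipolysis, oxidation, and synthesis of fatty acids. Each pooled comparison tested 16 receptor genes, 18 or 19 of uptake, 19 of lipid droplets, 22 of oxidation and 17 of synthesis, and 0 of them passed by edgeR's quasi-likelihood test in either direction. In oil mice the median log2 fold changes were 0.02 for the receptors, 0.01 for uptake, 0.02 for lipid droplets, 0.06 for oxidation and 0.16 for synthesis, against 0.01 over all genes. The synthesis value, with 16 of 17 genes above 0, was 0.02 without the 4 libraries.

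With 9527 the median was 0.14 for uptake, with 13 of 19 genes above 0, and -0.21 for lipid droplets, with 14 of 19 below 0. In 9527+oil relative to 9527 the signs were turned, at -0.25 for uptake and 0.37 for lipid droplets, and the receptors were at 0.47. Without the 4 libraries these 3 were -0.20, 0.21 and 0.25. The 2 comparisons share the 9527 mice. DESeq2 and limma voom with quality weights called 2 and 5 uptake genes in the latter, among 636 and 1559 of 15396 genes.

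Acsl4, which activates arachidonic acid, had the smallest p of the uptake list in male mice, with a log2 fold change of 0.58 (SE 0.10) with 9527 and an adjusted p of 0.0558. Cpt1b, the muscle form of the enzyme that admits fatty acids to mitochondria, was at -1.70 (SE 0.48) with 9527 in male mice, with an adjusted p of 0.174. Me1, which makes NADPH for fatty acid synthesis, was at 0.44 (SE 0.12) in the same mice. The adipocyte regulator Cebpa was at 0.44 (SE 0.09) with 9500+oil and its relative Cebpb at 1.00 (SE 0.33) with 9527+oil in male mice, and neither passed by edgeR's quasi-likelihood test. Lpl, which frees fatty acids from circulating triglyceride, reached 641 CPM in female oil mouse 6 and was at 128 to 345 CPM in the other female mice. Elovl6, which lengthens fatty acids, was at 60 CPM in the same mouse, against a female median of 8.64 CPM. It was at 3.87 to 12.1 CPM in the other female mice. Its log2 fold change in female oil mice, 1.52 (SE 0.80), thus included the outlying level of mouse 6.

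**Figure D4:**
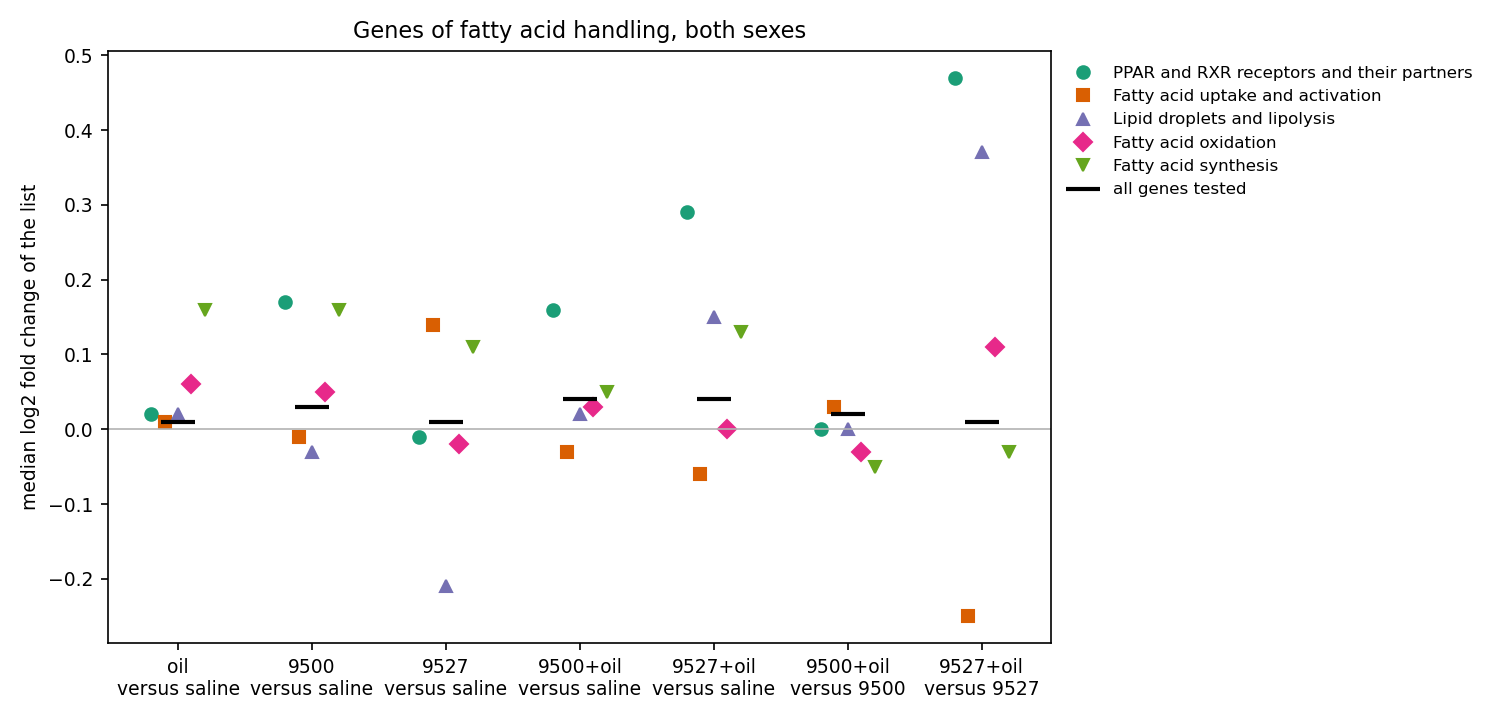
Median log2 fold change of 5 lists of fatty acid genes in the 7 comparisons pooled over sex, with a bar for the median of all genes tested. The lists lie between -0.25 and 0.47, and the widest spread is in 9527+oil against 9527.

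Likeness between genes was taken as the smaller of the Pearson correlations of log2 CPM over the 18 female and over the 18 male mice, among 15259 genes. These mice share treatment groups and library depth, so the values are descriptions. Fabp4 was most like Car3, the carbonic anhydrase of muscle and fat (0.87), and Pck1, of glyceride synthesis in fat (0.71), but without the 4 libraries these were 0.48 and 0.28. It was also like Sub1 (0.71), which stayed at 0.71 without them. Fabp3 was most like Wt1, a mesothelial transcription factor (0.69), Ppm1a (0.68) and Rassf3 (0.67), which were 0.47, 0.51 and 0.68 without the 4 libraries. Wt1 was at its highest in female oil mouse 6, at 17.9 CPM against a female median of 3.6 CPM. Fabp1 was most like Dixdc1 (0.61), Sdpr (0.57) and Slc5a8 (0.57), and Fabp5 like 1810009A15Rik (0.63), Minos1 (0.55) and Ak6 (0.55). Without the 4 libraries the 3 genes most like each member shared 1 with these for Fabp4 and 0 for the other members, those of Fabp3 then being Pltp (0.72), Itgb1bp2 (0.72) and Ces1d (0.71). Among the members, Fabp1 and Fabp3 correlated at 0.65 in female and 0.40 in male mice. Fabp4 and Fabp5 stood at 0.32 and -0.45. In female mice without the 4 libraries (n = 14) Fabp1 and Fabp3 were at 0.73 and Fabp4 and Fabp5 at 0.80.

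The members were also set beside the summed markers of the cells that could make them. Fabp3 followed the cardiomyocyte genes in male mice (r = 0.81, n = 18) and not in all female mice (r = -0.10, n = 18), where the value without the 4 libraries was 0.57 (n = 14). Other lists came close to this, with Fabp3 at 0.72 in male mice and 0.73 in female mice without the 4 against brown adipocyte genes, at 0.75 and 0.46 against ciliated cell genes, at 0.66 and 0.40 against capillary endothelial genes, at -0.71 and -0.50 against alveolar macrophage genes and at -0.71 and -0.69 against genes of proliferating cells. Cardiomyocyte genes summed to at least 172 CPM in every library, and the heart myosin Myh6 was at 30.1 to 233 CPM in male mice and at 0 in 2 female mice. Fabp5 followed the alveolar type 2 genes, at r = 0.55 in female and 0.54 in male mice and 0.88 in female mice without the 4. Against capillary endothelial genes Fabp5 was at -0.59 and -0.35, and at -0.80 without the 4. Against alveolar macrophage genes it was at 0.46, 0.30 and 0.60, and against club cell genes at 0.38, -0.55 and 0.68. Fabp1 stood at 0.60 and 0.30 against capillary endothelial genes and at 0.48 in female mice without the 4. Against genes of proliferating cells Fabp1 was at -0.28 in female and -0.54 in male mice, and at -0.64 without the 4, and against alveolar macrophage genes it was at -0.20, -0.39 and -0.61. Against cardiomyocyte genes it was at -0.31 in female and 0.48 in male mice, and at 0.07 without the 4. Against hepatocyte genes Fabp1 was at -0.44 in female and 0.41 in male mice, and at -0.54 without the 4. Against enterocyte genes it was at 0.27, -0.27 and 0.35. Fabp4 was at 0.39 and 0.67 against white adipocyte genes, and at 0.32 without the 4. Against capillary endothelial genes it was at 0.07, 0.01 and -0.49, and against alveolar macrophage genes at 0.18, -0.31 and 0.22. Against interstitial macrophage and monocyte genes it was at -0.52, -0.47 and -0.18. Fabp4 was closer to the skeletal muscle genes in female mice (r = 0.80), where oil mouse 6 held the highest muscle sum at 22.1 CPM, but it was at 0.48 without the 4 libraries and at 0.21 in male mice. With club cell genes Fabp4 was at 0.45 in female and 0.39 in male mice, and at 0.86 in female mice without the 4. These pairs were picked after the values were seen, from 15 marker lists, and the mice share treatment, depth and composition.

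**Figure D5:**
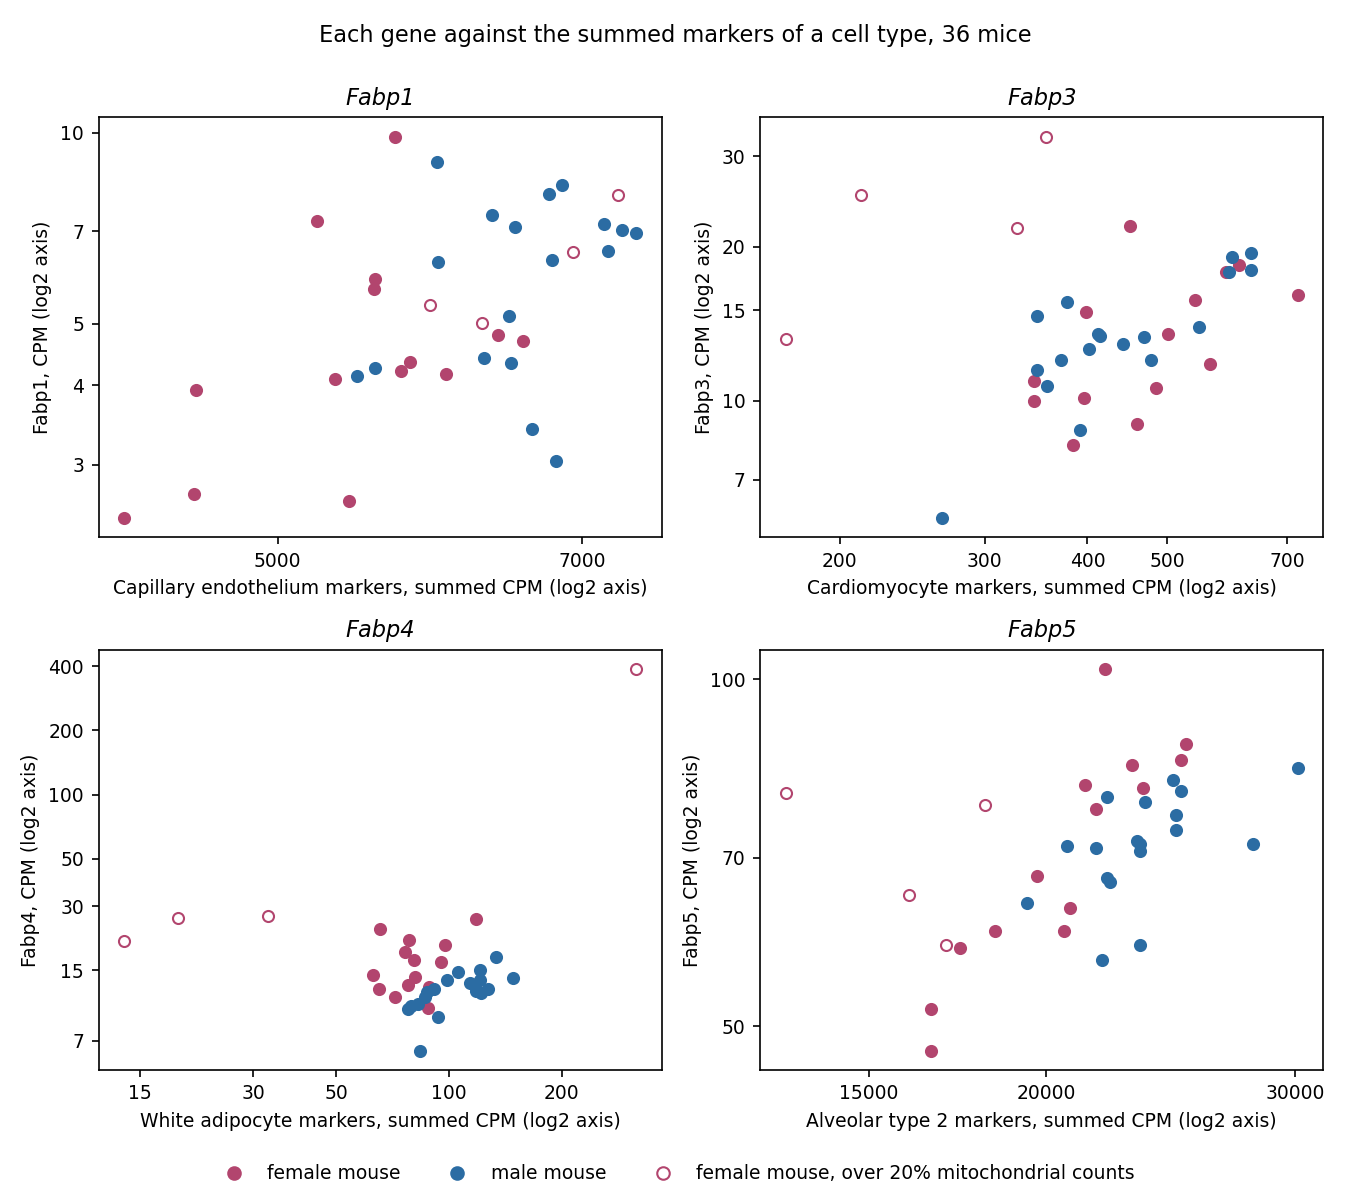
Each member (vertical axis, CPM) against the summed CPM of a marker list (horizontal axis), both on log2 axes, for 36 mice, with open circles for the 4 mitochondria-rich female libraries. Apart from those open circles, mice with higher cardiomyocyte sums tend to have higher Fabp3. For Fabp4, 1 of the open circles, female oil mouse 6, stands far from the rest.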

How the data were processed

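Lung RNA of 36 mice was sequenced (stranded mRNA libraries). The authors quantified the reads with Salmon against the GRCm38 Ensembl cDNA and combined them with tximport, versions not given in the sources used here, and deposited estimated counts per gene symbol, already whole numbers, in 1 table per sex. The tables held 18120 female and 18295 male genes, each with a sum of at least 10, and a few symbols had been turned into dates (24 per table). Of 18691 symbols, 17813 (95.3%) were matched to GENCODE M21. Library totals were 17501180 to 30011557 counts, and no pair of libraries was alike within sampling noise.

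Counts were tested in R 4.3.3 with edgeR 4.0.16 (quasi-likelihood F-test, TMM, filterByExpr by group, Benjamini-Hochberg over all genes, threshold 0.05). Fits compared each treatment with saline per sex and over both sexes with a sex term, sex by treatment, dispersant with and without oil, and any difference among the 6 groups. Levels are CPM on effective library sizes, with log2 CPM for correlations taken with a prior count of 2. The fits were also run on simulated counts, with the same dispersion for all genes and no mitochondria-rich libraries. That run cannot show how the fits behave with such libraries. Alternatives were DESeq2 1.42.0, limma 3.58.1 voom with quality weights, other size factors and filters, GC offsets, the 4 libraries with over 20% mitochondrial counts left out, and each mouse left out in turn.

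Groups were taken from the labels. The members, the gene and marker lists and the tests were chosen with earlier results of these data known. Genes named besides the 4 members were, by rule, the family genes listed (1 is not reported here), the 3 genes of each pathway list with the smallest p among the 6 groups in each sex, the 3 genes most like each member, and the first genes of each marker list. Ucp1, Cfd, Plin1, Lipe, Adrb3, Cox8b, Cidea, Myh6 and Alb are marker list genes, some of them named after their values were seen.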

Additional observations from a re-analysis of the deposited data

Results flagged for a closer look

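Fabp4 with oil was singled out because the sexes went opposite ways. All 3 female oil mice lay above the mean of their saline mice, by 0.23 to 4.43 on the log2 scale, and all 3 male oil mice lay below theirs, by -1.19 to -0.10. White adipocyte genes summed to 84 to 98.8 CPM in the male oil mice and 114 to 134 CPM in male saline mice. Male 9527 mice, at 82.6 to 91.5 CPM, also lay below saline for these genes. The part of these genes in the male oil value was not tested. The male minus female log2 fold change was -3.61 (SE 1.29), with an adjusted p of 1 for the interaction by edgeR's quasi-likelihood test, so the difference itself did not pass. It was -0.99 without female oil mouse 6, the mouse whose adipocyte genes stood high, and -1.10 without the 4 libraries rich in mitochondrial counts.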

How the results depend on the processing

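No member passed in any of the 24 comparisons by edgeR's quasi-likelihood test, and this count of 0 was unchanged in 199 of 204 alternatives. DESeq2 called 1 member for oil in male mice and 1 for oil over both sexes, Fabp1 in each. Limma voom with quality weights called 2, Fabp1 and Fabp3, for 9527 over both sexes, for 9527+oil over 9527, and for any difference among the 6 groups in female mice. Leaving out 1 mouse at a time gave 0 in 239 of 240 fits, and the range for any difference among male groups was 0 to 1, with the 1 being Fabp1 without 9527 mouse 12. The cause of these changes was not tested. DESeq2 gave no adjusted p for Fabp4 with oil in female mice, over both sexes or in the interaction.

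Log2 fold changes of members moved by more than the spread between mice in 22 of 764 alternatives and in 13 of 816 fits with 1 mouse left out. Among them were Fabp4 with oil in female mice (2.95, and 0.47 under limma voom with quality weights). Fabp4 with oil over both sexes was another (1.20, and 2.31 without a sex term). The spread used was, for each gene, the root mean square of the SDs of log2 CPM within groups. For Fabp4 it was widened by the female oil mice (SD 2.34), so smaller shifts of Fabp4 were not counted as moved. All genes called ranged up to 1559 in 9527+oil against 9527 (86 by edgeR), up to 797 for 9527 over both sexes (5) and up to 594 for 9527 in male mice (17). With 1 mouse left out they were 0 (without female or male 9527+oil mouse 16) to 1039 (without female 9527 mouse 11), 0 (without any 1 of 5 of the 6 saline mice) to 9 (without female saline mouse 3), and 0 (without male saline mouse 2 or 3) to 211 (without male 9527 mouse 12). No paired analysis was possible because mouse numbers are nested within treatment, so the compared groups share none. The counts of Fabp1, 53 to 243 per library, and 3 mice per sex and group limit what could be detected.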
